A study of Mus musculus with 5 samples.

Results

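The 10 genes described here carry glucose into the cell and through glycolysis: the transporter gene Slc2a1, the hexokinase genes Hk1 and Hk2, the phosphofructokinase genes Pfkl and Pfkp, and Aldoa, Gapdh, Pgk1, Pkm and Ldha. They were chosen by name out of 17902 genes listed in any of 5 single-cell libraries, and all 10 are listed in every library. Cells of adult mouse heart interstitium had been separated from cardiomyocytes, flow sorted on surface cKit (a receptor tyrosine kinase), DDR2 (a collagen receptor) and CD45 (the common leukocyte phosphatase), and counted by droplet 3′ sequencing. The 4 sorts were cKit-/DDR2+ (1 library, 2280 cells), cKit+/DDR2- (replicate 1 with 436 cells and replicate 2 with 3020), cKit+/DDR2+/CD45- (1 library, 1327 cells) and cKit+/DDR2+/CD45+ (1 library, 3898 cells). No treatment, genotype or disease is given for any sort, and strain, age and the number of animals are not given in the sources used here.

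Glucose enters through facilitative transporters such as GLUT1, the product of Slc2a1, and is trapped by hexokinase as glucose 6-phosphate, which can go on through glycolysis or turn off into the pentose phosphate pathway. Phosphofructokinase is the committed and most regulated step of glycolysis, and the enzymes downstream of it yield ATP, pyruvate and, through lactate dehydrogenase, lactate. Several steps exist as isozymes from separate genes. Endothelial cells are known for their reliance on glycolysis, and many glycolytic genes are targets of the hypoxia-inducible factors.

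Cells were assigned to types by 1 gene each, with at least 2 UMIs (unique molecular identifiers, 1 for each captured transcript) of that gene: Gpihbp1, a gene of capillary endothelium, for Gpihbp1-positive, Apln for Apln-positive, Npr3 for endocardial, Pdgfra for fibroblast and C1qa for macrophage cells. UMIs were summed over the gated cells of a library where it had at least 30 of them, and expressed as CPM, UMIs of a gene scaled so that every sum has the same total. This gave 16 sums, from 4 libraries for Gpihbp1-positive and endocardial cells, 3 for Apln-positive cells and fibroblasts, and 2 for macrophages. Since 3′ counting takes 1 UMI from a transcript whatever its length, CPM of different genes carry no length factor.

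The libraries held between 4047326 and 44847778 UMIs, with medians of 7529 to 10972 UMIs a cell. Marker lists bore out the gates in part. Summed over 6 macrophage markers, macrophage sums lay between 7567 and 8213 CPM and all other sums at or below 38.0 CPM. Fibroblast markers summed to between 42422 and 63213 CPM in fibroblasts, but also to between 2946 and 5746 CPM in endocardial cells, and to 1883 CPM in the Gpihbp1-positive cells of cKit-/DDR2+. In the Gpihbp1 gate, capillary markers summed to 24920 CPM in cKit-/DDR2+, 13371 and 14347 CPM for cKit+/DDR2- replicates 1 and 2, and 28377 CPM in cKit+/DDR2+/CD45-. Lymphatic endothelial markers in the same sums reached 5.38, 19541, 16590 and 4408 CPM, above the capillary markers in both cKit+/DDR2- libraries. The gate, which is the reference of every contrast of cell types, is therefore called by its gene and not capillary. Pericyte markers in the same sums reached 1230, 237.7, 197.2 and 724.5 CPM, against 114.4 to 136.2 CPM in fibroblasts. The red cell genes Hbb-bs and Hba-a1 summed to 4087 CPM in the Gpihbp1 gate of cKit-/DDR2+ and to 338.2 CPM in its fibroblasts. Apln-positive cells also carried the capillary markers, at 14120 to 22564 CPM. Their own 6 markers, which include the endothelial genes Cdh5 and Pecam1, parted them little from Gpihbp1-positive cells. The markers summed to 2284 against 2183 CPM in cKit-/DDR2+, 3000 against 1844 CPM in cKit+/DDR2- replicate 1 and 2294 against 2028 CPM in cKit+/DDR2+/CD45-. The libraries also split in 2 by Xist, at 496 and 757 CPM in cKit+/DDR2- replicate 2 and cKit+/DDR2+/CD45- and at no more than 0.0669 CPM in the others. The same pair had 9.09% and 10.6% of UMIs in the gene Gm42418, against 0.980% to 1.39%. cKit+/DDR2- replicate 1 and cKit+/DDR2+/CD45+ share 190 cell barcodes, 43.6% of the cells of the former and 4.87% of the latter, while no other pair shares more than 3. The shared cells have a median of 12133.5 UMIs in the former and 622.5 in the latter. Of the sums used, those cells of cKit+/DDR2+/CD45+ touch the macrophages alone, with 9 of 3481 cells. No other sum of that library was used, and the fits below take out the level of each library. Leaving those cells out could therefore hardly move a contrast of cell types, and it is no check on them.

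Cells of the Gpihbp1 gate were parted by a UMI of at least 2 of 5 lymphatic markers (Prox1, Lyve1, Mmrn1, Ccl21a and Reln), a split chosen after seeing the data. Such cells numbered 1 of 1027 in cKit-/DDR2+, 54 of 137 and 162 of 400 in cKit+/DDR2- replicates 1 and 2, and 46 of 550 in cKit+/DDR2+/CD45-. Without them the lymphatic markers fell to between 1.80 and 45.2 CPM and the capillary markers stood at 23145 to 32147 CPM. Ldha, the lactate dehydrogenase gene, stood at 139, 142 and 150 CPM in the lymphatic-marker cells of cKit+/DDR2- replicates 1 and 2 and of cKit+/DDR2+/CD45-, and at 228, 311 and 268 CPM in the rest of the gate there. Gapdh went the other way, at 636, 660 and 611 CPM against 407, 518 and 399 CPM. Pfkl stood at 53.2, 57.4 and 51.3 CPM against 81.0, 96.1 and 63.2 CPM, whereas Hk2 did not exceed 2.31 CPM in either set. For Ldha, Gapdh and Pfkl the 2 sets did not overlap in these libraries. Here, and wherever sums are said not to overlap, the share of all genes that did likewise was not counted. The contrasts below were therefore also fitted without the lymphatic-marker cells.

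The summed level of the 10 genes moved little between cell types. It lay between 1228 CPM, in endocardial cells of cKit+/DDR2+/CD45-, and 1786 CPM, in macrophages of cKit+/DDR2- replicate 2. Within 1 library the order of types changed: in cKit+/DDR2+/CD45- Apln-positive cells stood highest at 1733 CPM, whereas in cKit-/DDR2+ endocardial cells did at 1744 CPM, with fibroblasts at 1643 CPM. The summed level is led by Gapdh and Aldoa and says little of genes at lower levels. Which isozyme was counted differed between types, first at the hexokinase step, and the hexokinase total differed as well. Hk2 alone held 84.7 to 142.7 CPM in fibroblasts. Gpihbp1-positive cells held 36.3 to 49.8 CPM of Hk1 and at most 11.5 CPM of Hk2.

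**Figure D1:**
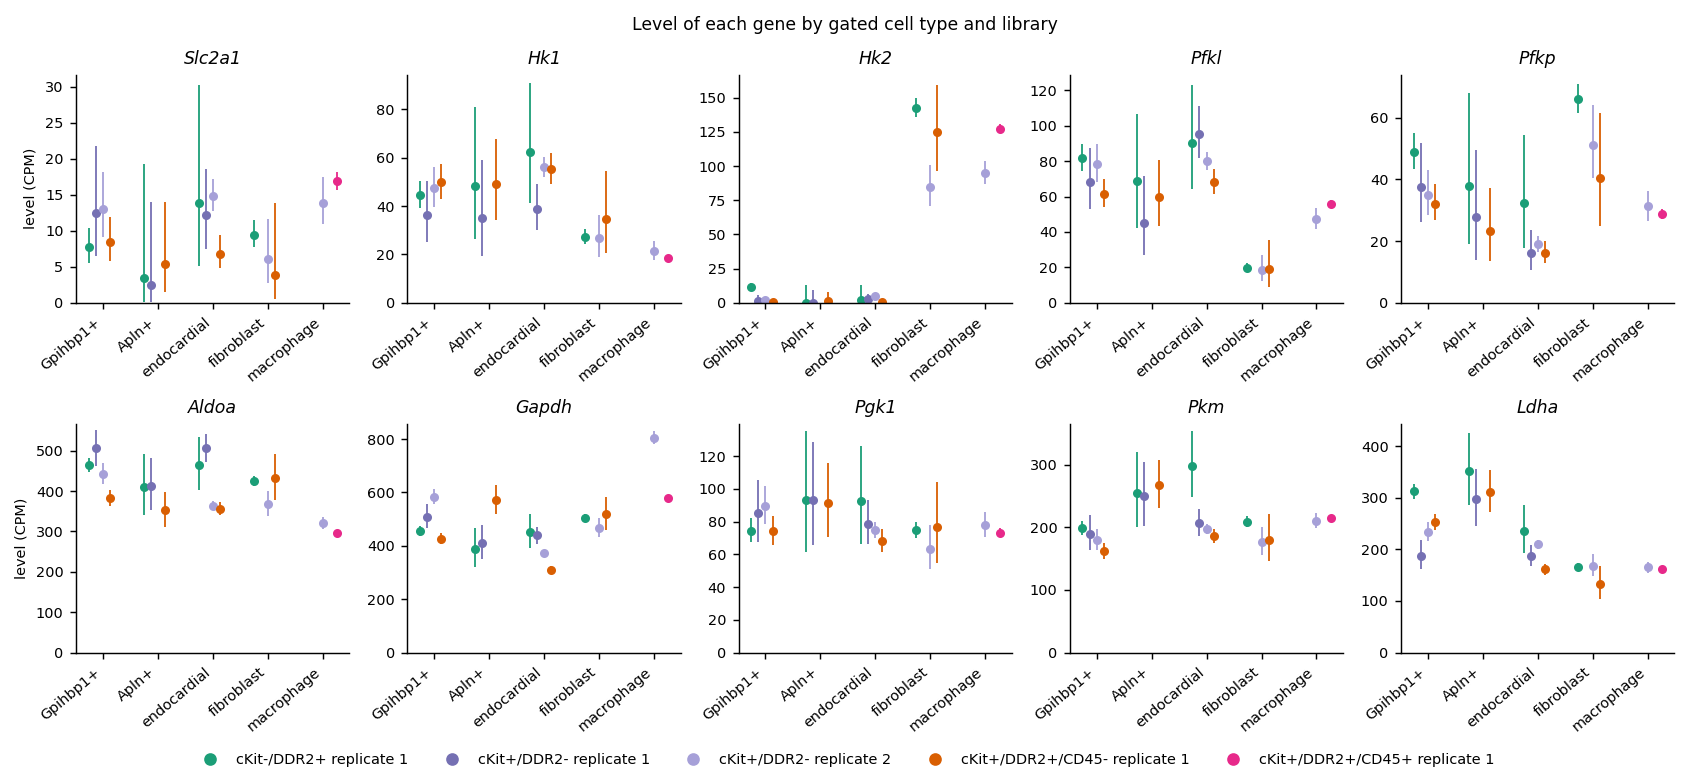
Level of each of the 10 genes in CPM (linear axis from 0) by gated cell type; each point is 1 library's sum over at least 30 cells and bars are exact 95% Poisson intervals for counting error. Hk2 stands at 84.7 CPM or more in fibroblasts and macrophages and at 11.5 CPM or less in the 3 endothelial gates.

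Hk2 encodes the inducible hexokinase of muscle and many proliferating cells, and it lies at chr6:82725025-82774454 (build mm10). Gpihbp1-positive cells of cKit-/DDR2+ held 11.5 CPM, those of cKit+/DDR2- 1.04 (replicate 1) and 1.86 CPM (replicate 2), and those of cKit+/DDR2+/CD45- 0.264 CPM. Fibroblasts of cKit-/DDR2+ held 142.7 CPM, those of cKit+/DDR2- replicate 2 held 84.7 CPM and those of cKit+/DDR2+/CD45- 124.7 CPM. The macrophages of cKit+/DDR2- replicate 2 held 94.7 CPM, and the macrophages of cKit+/DDR2+/CD45+ held 127.3 CPM. Every fibroblast and macrophage sum was thus above every Gpihbp1-positive sum, and fibroblasts and macrophages overlapped each other. Endocardial sums (0.733 to 5.04 CPM) and Apln-positive sums (0, 0 and 1.36 CPM, from 1 UMI in all) lay in or below the Gpihbp1-positive range.

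Hk1 encodes the hexokinase that most tissues carry at a steady level (chr10:62268855-62379920). It showed the opposite order. Fibroblasts held 27.2, 26.6 and 34.5 CPM in cKit-/DDR2+, cKit+/DDR2- replicate 2 and cKit+/DDR2+/CD45-, where the Gpihbp1-positive cells of the same libraries held 44.5, 47.4 and 49.8 CPM. Macrophages held 21.4 and 18.6 CPM, and endocardial cells 38.8 to 62.4 CPM. Gpihbp1-positive, Apln-positive (35.3 to 49.0 CPM) and endocardial ranges overlapped, and the fibroblast and macrophage ranges lay below all Gpihbp1-positive sums.

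Counted together, hexokinase UMIs were mostly of Hk1 in endothelium and mostly of Hk2 outside it. Hk1 made up 79.0% to 99.5% of the UMIs of Hk1, Hk2 and Hk3 in Gpihbp1-positive cells, 97.3% to 100% in Apln-positive cells and 91.5% to 98.7% in endocardial cells. In fibroblasts Hk2 made up 84.0% in cKit-/DDR2+ (exact Clopper-Pearson 95% interval 82.3% to 85.6%, 1903 UMIs), 76.1% in cKit+/DDR2- replicate 2 (68.8% to 82.4%, 163 UMIs) and 78.3% in cKit+/DDR2+/CD45- (67.9% to 86.6%, 83 UMIs). Macrophages divided their UMIs among Hk2 (60.7% and 67.3%), Hk3 (25.6% and 22.9%) and Hk1 (13.7% and 9.85%). Hk3, a hexokinase of myeloid cells, stood at 40.03 and 43.28 CPM there and at no more than 0.373 CPM elsewhere. These intervals, and all others of UMIs or cells below, cover counting error only.

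The difference was also seen cell by cell at equal depth. After thinning every cell to 2000 UMIs, Hk2 was found in 16.6% of 767 fibroblasts of cKit-/DDR2+ (exact 95% interval 13.99% to 19.38%) and in 0.416% of 962 Gpihbp1-positive cells (0.113% to 1.06%). The unthinned shares were 40.2% and 0.779%, at median depths of 14284 and 5208 UMIs. In cKit+/DDR2- replicate 2 the thinned shares were 12.7% of 126 fibroblasts, 13.1% of 521 macrophages, 1.18% of 1272 endocardial cells and 0.256% of 390 Gpihbp1-positive cells, with unthinned shares of 26.2%, 45.6%, 3.83% and 1.25%. Thinning left out 65 Gpihbp1-positive cells and 1 fibroblast of cKit-/DDR2+ as too shallow, and 10 Gpihbp1-positive cells, 6 endocardial cells and 23 macrophages of cKit+/DDR2- replicate 2.

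**Figure D2:**
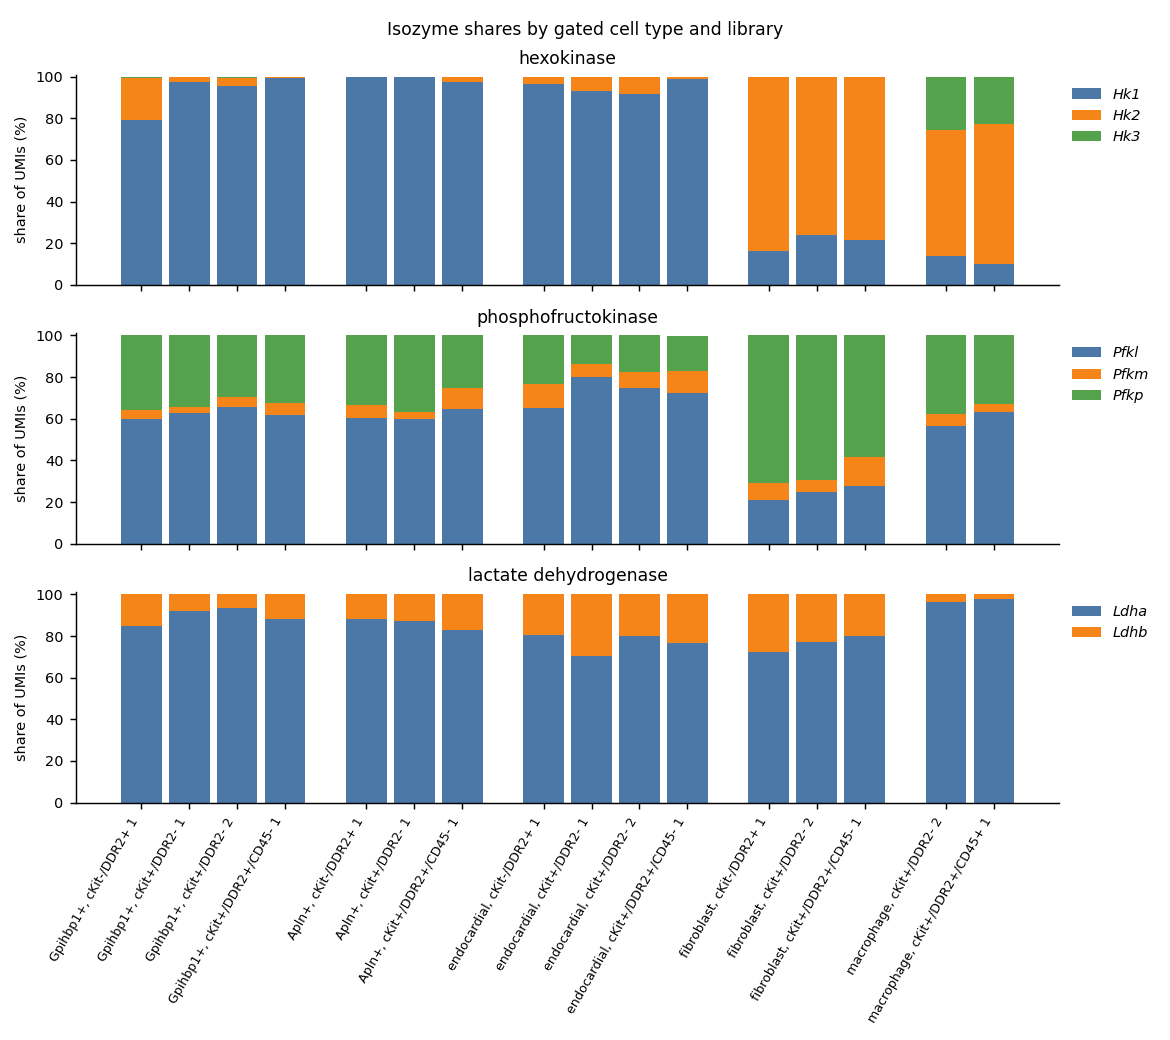
Share (%) of UMIs held by each isozyme gene of hexokinase, phosphofructokinase and lactate dehydrogenase; each bar is 1 library and gated cell type. Hk2 holds 76.1% to 84.0% of hexokinase UMIs in fibroblasts and 0.5263% to 20.4% in Gpihbp1-positive cells, and Pfkp 58.3% to 70.9% of phosphofructokinase UMIs in fibroblasts and 29.4% to 35.8% in Gpihbp1-positive cells.

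The phosphofructokinase genes also differed by cell type. Pfkl, named for the liver subunit (chr10:77986947-78009807), stood at 81.8 CPM in Gpihbp1-positive cells of cKit-/DDR2+, at 68.5 and 78.3 CPM in those of the cKit+/DDR2- libraries (replicate 1, then 2) and at 61.7 CPM in those of cKit+/DDR2+/CD45-. In fibroblasts it stood at 19.7, 18.4 and 19.2 CPM in cKit-/DDR2+, cKit+/DDR2- replicate 2 and cKit+/DDR2+/CD45-. Fibroblasts did not overlap any other type, the nearest being 45.3 CPM in Apln-positive cells of cKit+/DDR2- replicate 1. Endocardial cells (68.2 to 95.6 CPM) overlapped Gpihbp1-positive cells, and macrophages (47.2 and 55.7 CPM) lay below them.

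Pfkp, named for the platelet subunit (chr13:6579874-6649060), was lowest in endocardial cells. They held 32.4 CPM for cKit-/DDR2+, 16.2 and 18.9 CPM for the cKit+/DDR2- libraries (replicate 1, then 2) and 16.1 CPM for cKit+/DDR2+/CD45-. The Gpihbp1-positive cells of the same libraries held 48.8, 37.4, 35.0 and 32.2 CPM. Endocardial cells were below Gpihbp1-positive cells in 4 of 4 libraries, although the highest endocardial sum lies just inside the Gpihbp1-positive range. Fibroblasts held 40.3 to 66.0 CPM, above the Gpihbp1-positive cells of the same library in 3 of 3, and macrophages 28.8 and 31.2 CPM. Of the UMIs of Pfkl, Pfkm and Pfkp, Pfkl made up 60% to 65.6% in Gpihbp1-positive, 65.0% to 80.1% in endocardial and 56.7% to 63.2% in macrophage cells. In fibroblasts it made up 21.1%, 25.0% and 27.8%, and Pfkp 70.9%, 69.4% and 58.3%.

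Differences between types were then tested within libraries, with library as a block, by limma on log2(CPM + 1) over 8714 genes with a mean of at least 10 CPM. The 4 contrasts share the Gpihbp1-positive sums and 1 estimate of spread. Since the block takes out the level of each library, the p-values rest on how differences between types varied among these libraries. Nothing in the labels says that the libraries came from separate animals. Of the 10 genes 9 passed the filter, and Slc2a1 did not. In fibroblasts 4 of the 9 were called, 1 higher and 3 lower, where 15.2% of all genes were called higher and 23.8% lower. Hk2 was higher by 5.13 on the log2 scale (SE 0.669, adjusted p = 4.91e-05). It passed the filter only through its fibroblast and macrophage sums (means of 117 and 111 CPM, against 0.454 to 3.66 CPM in the 3 endothelial gates), so it could enter the test only by differing, and its place in the count is no support. Pfkl was lower (log2 difference -1.89, SE 0.168, adjusted p = 1.82e-06), as were Ldha (-0.71, SE 0.126, adjusted p = 6.1e-04) and Hk1 (-0.69, SE 0.154, adjusted p = 0.00318). Each had the same direction in 3 of 3 libraries, and each was called under all alternatives that tested it, among them the one without the cells of lymphatic markers (5.36, -2.02, -0.90 and -0.73). Pfkp, at 0.39 (adjusted p = 0.0866), Aldoa, Gapdh, Pgk1 and Pkm were not called, the last 4 between -0.16 and 0.04. The median of the 9 genes was -0.07, against -0.13 for all genes tested.

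The size of the Hk2 difference is less certain than its direction, since 3 of the 4 Gpihbp1-positive sums rest on 1 to 5 UMIs. As a ratio of CPM within a library, Hk2 was 12.4-fold higher in fibroblasts than in Gpihbp1-positive cells of cKit-/DDR2+ (exact 95% interval 9.68 to 16.2). The ratio was 45.4 in cKit+/DDR2- replicate 2 (19.0 to 142.4, 124 against 5 UMIs). In cKit+/DDR2+/CD45- it was 473, with an interval of 82.0 to 18970 around 65 UMIs against 1. Beside the Gpihbp1-positive Hk2 of cKit-/DDR2+ stands the fibroblast gene Dcn (decorin), at 666 CPM in those Gpihbp1-positive cells, 18.7 to 51.5 CPM in the Gpihbp1-positive cells of the other libraries and 22188 CPM in the fibroblasts of cKit-/DDR2+. The part of such transcripts in the Gpihbp1-positive level of Hk2 was not tested. Over all alternatives the fitted difference ran from 3.91 to 5.64.

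**Figure D3:**
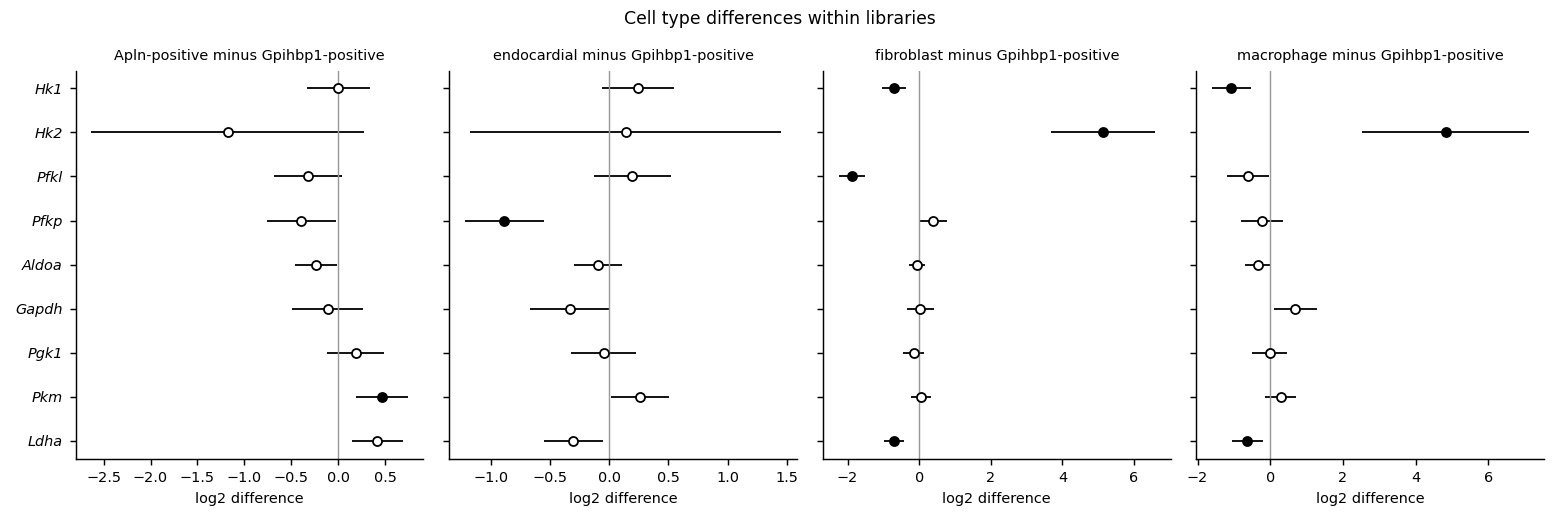
Log2 difference, on log2(CPM + 1), of each cell type from Gpihbp1-positive cells of the same libraries for the 9 genes that passed the filter; points are limma estimates, bars 95% intervals, and filled points have an adjusted p below 0.05. Horizontal scales differ between panels; Hk2 lies at 5.13 for fibroblasts and 4.82 for macrophages.

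In macrophages, Hk2 was again higher and Hk1 and Ldha lower than in Gpihbp1-positive cells, with 3 of 9 genes called; 8.66% of all genes were called higher and 22.1% lower. Only cKit+/DDR2- replicate 2 holds both cell types, so the within-library difference comes from that library, and its spread is taken from the other types. The reference sum of that library is the one with 16590 CPM of lymphatic markers. Hk2, in the test through its high sums as above, differed by 4.82 (SE 1.05, adjusted p = 0.00359) and by a 50.8-fold ratio of CPM (exact 95% interval 21.6 to 157). Hk1 differed by -1.07 (SE 0.243, adjusted p = 0.00465) and Ldha by -0.63 (SE 0.198, adjusted p = 0.0291). The Ldha call held in 17 of 22 alternatives. It did not hold without cKit+/DDR2+/CD45- (adjusted p = 0.0682), with a gate of 1 UMI (0.0958), with at least 50 cells (0.0593), without a filter (0.0524) or with median-of-ratios scaling (log2 difference -0.32, adjusted p = 0.28). Gapdh, at 804 and 579 CPM in macrophages and 425.5 to 583.5 CPM in Gpihbp1-positive cells, was not called (0.69, adjusted p = 0.078), nor was Pfkl (-0.62, adjusted p = 0.0982). Without the cells of lymphatic markers both were called, Gapdh at 0.83 (adjusted p = 0.0246) and Pfkl at -0.81 (adjusted p = 0.044), and Ldha stood at -0.89 (adjusted p = 6.49e-04). Gapdh was called in 6 of 22 alternatives and Pfkl in 5 of 22. The median gene of all those tested lay at -0.30 in macrophages, and at 0.01 with median-of-ratios scaling. Ptprc stood at 309 and 330 CPM in macrophages and at or below 4.10 CPM in all other sums.

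In endocardial cells 1 of 9 genes was called, at a background of 9.7% of all genes higher and 16.2% lower. Pfkp was lower (log2 difference -0.89, SE 0.153, adjusted p = 9.66e-04) in 4 of 4 libraries, by -0.58, -1.16, -0.85 and -0.95. It was called in 21 of 22 alternatives, the exception being a gate of 1 UMI (-0.71, adjusted p = 0.122). Ldha, which makes the muscle-type subunit of lactate dehydrogenase, stood at 235.7, 187.1, 209.7 and 161.4 CPM against 312.6, 187.9, 233.4 and 253.1 CPM in Gpihbp1-positive cells of the same libraries. The cKit+/DDR2- replicate 1 pair was level and the other 3 were lower, and the gene was not called (-0.30, SE 0.114, adjusted p = 0.0713). Without the cells of lymphatic markers it was called, at -0.50 (adjusted p = 0.001), and 7 of 23 alternatives called it. The fibroblast markers in the endocardial gate are led by Dcn, at 2319 to 4501 CPM, and their part in these differences was not tested. Pfkp itself was higher in fibroblasts than in endocardial cells of the same library in 3 of 3.

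Apln is known as a gene of tip-like and newly formed endothelium. The marker sums given above cannot decide whether the gate holds such a type, since they include Cdh5 and Pecam1. Of these markers, Adm was higher in this gate, at a mean of 159.5 CPM against 46.93 CPM in Gpihbp1-positive cells. The other markers are not given 1 by 1. In Apln-positive cells 1 of 9 genes was called, where 2.7% of all genes were called higher and 6.32% lower. Pkm, the pyruvate kinase of most tissues other than liver and red cells (chr9:59656576-59679372), stood at 255.0, 249.4 and 266.9 CPM in Apln-positive cells of cKit-/DDR2+, cKit+/DDR2- replicate 1 and cKit+/DDR2+/CD45-. The Gpihbp1-positive cells of these libraries held 198.6, 189.9 and 161.6 CPM, lower in 3 of 3. The difference was 0.47 (SE 0.126, adjusted p = 0.0392). The Pkm call did not hold without cKit+/DDR2- replicate 1 (adjusted p = 0.136), without replicate 2 (0.102), without cKit+/DDR2+/CD45- (0.233) or without the cells of lymphatic markers (log2 difference 0.45, adjusted p = 0.0538), and it held in 14 of 23 alternatives. Ldha was higher in 3 of 3 libraries, at 351.4, 297.2 and 311.8 CPM, but was not called (0.42, SE 0.126, adjusted p = 0.059). These sums come from 37, 44 and 63 cells. Cycling markers reached 181 CPM in Apln-positive cells and 20.8 CPM in Gpihbp1-positive cells, and their part was not tested.

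Of 3 genes in the middle of the pathway, none was called in the 4 contrasts as fitted. Aldoa, which encodes the aldolase that splits fructose 1,6-bisphosphate (chr7:126795234-126800994), ranged from 353 to 506 CPM over all endothelial and fibroblast sums, and from 296 to 320 CPM in macrophages. Its relative Aldoc held at most 1.75% of the UMIs of both. Pgk1, phosphoglycerate kinase (chrX:106187100-106203699), ranged from 63.5 to 93.2 CPM over all 16 sums. Gapdh, glyceraldehyde 3-phosphate dehydrogenase (chr6:125161852-125166467), ranged from 310 CPM in endocardial cells of cKit+/DDR2+/CD45- to 804 CPM in macrophages.

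Ldha (chr7:46842274-46855627) and its partner Ldhb, which makes the heart-type subunit, were counted in different proportions. Ldhb made up 6.43% to 15.2% of the UMIs of both in Gpihbp1-positive cells, 19.7% to 29.8% in endocardial cells, 19.8% to 27.6% in fibroblasts and 2.23% and 3.83% in macrophages. Ldhb itself was higher in endocardial than in Gpihbp1-positive cells (log2 difference 1.10, SE 0.332, adjusted p = 0.0276) and lower in macrophages (-1.64, SE 0.577, adjusted p = 0.0485). In cKit-/DDR2+, with 1 lymphatic-marker cell in the gate, the endocardial and Gpihbp1-positive levels were close: 25 of 432805 and 312 of 5573371 UMIs. The shares were 29.8% against 8.12% in cKit+/DDR2- replicate 1 and 20.2% against 6.43% in replicate 2. No fit without the lymphatic-marker cells is given for Ldhb.

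Slc2a1 (chr4:119108745-119137330) had few UMIs in every type. Its Gpihbp1-positive level was 7.72 CPM for cKit-/DDR2+, 12.4 and 13.1 CPM for the cKit+/DDR2- libraries (replicate 1, then 2) and 8.44 CPM for cKit+/DDR2+/CD45-. Macrophages held 13.9 and 16.9 CPM, endocardial cells 6.78 to 14.9 CPM and fibroblasts 3.84 to 9.47 CPM. Apln-positive cells held 3.44, 2.52 and 5.45 CPM, from 1, 1 and 4 UMIs. In the order of means, macrophages were followed by endocardial cells, Gpihbp1-positive cells, fibroblasts and Apln-positive cells, and each pair of neighbours in that order overlapped. Among sums of at least 30 cells, Gpihbp1-positive cells did not overlap Apln-positive cells or macrophages, but this rested on that minimum. The 23 Apln-positive cells of cKit+/DDR2- replicate 2 held 17.4 CPM, from 4 UMIs, above every Gpihbp1-positive sum. The 23 macrophages of cKit+/DDR2- replicate 1 held 12.1 CPM, from 3 UMIs, inside the Gpihbp1-positive range. Without a filter on low values no difference of Slc2a1 was called, the one farthest from 0 being -1.18 in Apln-positive cells (SE 0.366, adjusted p = 0.139). With 1 to 4 UMIs in an Apln-positive sum, the depth behind that value is low. Slc2a3, which encodes the high-affinity transporter GLUT3, held 20.0% to 29.4% of the UMIs of Slc2a1, Slc2a3 and Slc2a4 in Gpihbp1-positive cells, and at most 12.5% in endocardial cells.

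Sorts were then compared within a cell type. With 1 library on at least 1 side, no test was made: a gene was called at 2-fold on CPM with 1 CPM added, if it reached 50 CPM in 1 library. In Gpihbp1-positive cells, none of the 6 genes that reached that level differed 2-fold between cKit+/DDR2+/CD45- and cKit-/DDR2+, where 1.81% of all genes did in the higher and 1.58% in the lower direction. Their log2 ratios ran from -0.40 for Pfkl (exact 95% interval -0.64 to -0.18) to -0.0022 for Pgk1. Hk2 lay below that level and so outside the rule, but it was the member farthest apart, at 0.264 against 11.5 CPM, from 1 and 64 UMIs (log2 ratio -3.30 with 1 CPM added). Without the filter it was called. In Apln-positive cells of the same sorts, 0 of 6 were called (background 5.07% higher and 6.34% lower), with Gapdh the farthest apart at 0.55 (0.25 to 0.87). In fibroblasts, 0 of 7 were called (0.955% and 1.42%). There Hk2 was at -0.19 (-0.58 to 0.16) and Pfkp at -0.70 (-1.41 to -0.09), from 65 and 21 UMIs in the 37 fibroblasts of cKit+/DDR2+/CD45-.

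In endocardial cells, 0 of 7 genes differed 2-fold between cKit+/DDR2+/CD45- and both cKit+/DDR2- libraries (0.15% and 0.24% of all genes). Aldoa lay at -0.51 from replicate 1 and at -0.03 from replicate 2, and Gapdh at -0.50 and -0.26, so for Aldoa the replicates of 1 sort were as far apart as the sorts. Hk2, again below the level, lay at -1.17 and -1.80, from 4, 5 and 62 UMIs. In macrophages, 0 of 7 differed 2-fold between cKit+/DDR2+/CD45+ and cKit+/DDR2- replicate 2 (0.513% and 0.787%). Hk2 was at 0.42 (0.29 to 0.56), Pfkl at 0.23 (0.05 to 0.43) and Gapdh at -0.47 (-0.52 to -0.43), and the other 4 lay between -0.11 and 0.03. The libraries on the 2 sides of all these comparisons differed in Xist and in Gm42418, except for cKit+/DDR2+/CD45- and cKit+/DDR2- replicate 2 in endocardial cells. Over whole libraries, Gm42418 took 10.6% of UMIs against 1.04% for the comparisons in Gpihbp1-positive cells, Apln-positive cells and fibroblasts, and 0.980% against 9.09% for that in macrophages. This difference and the sort cannot be told apart.

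**Figure D4:**
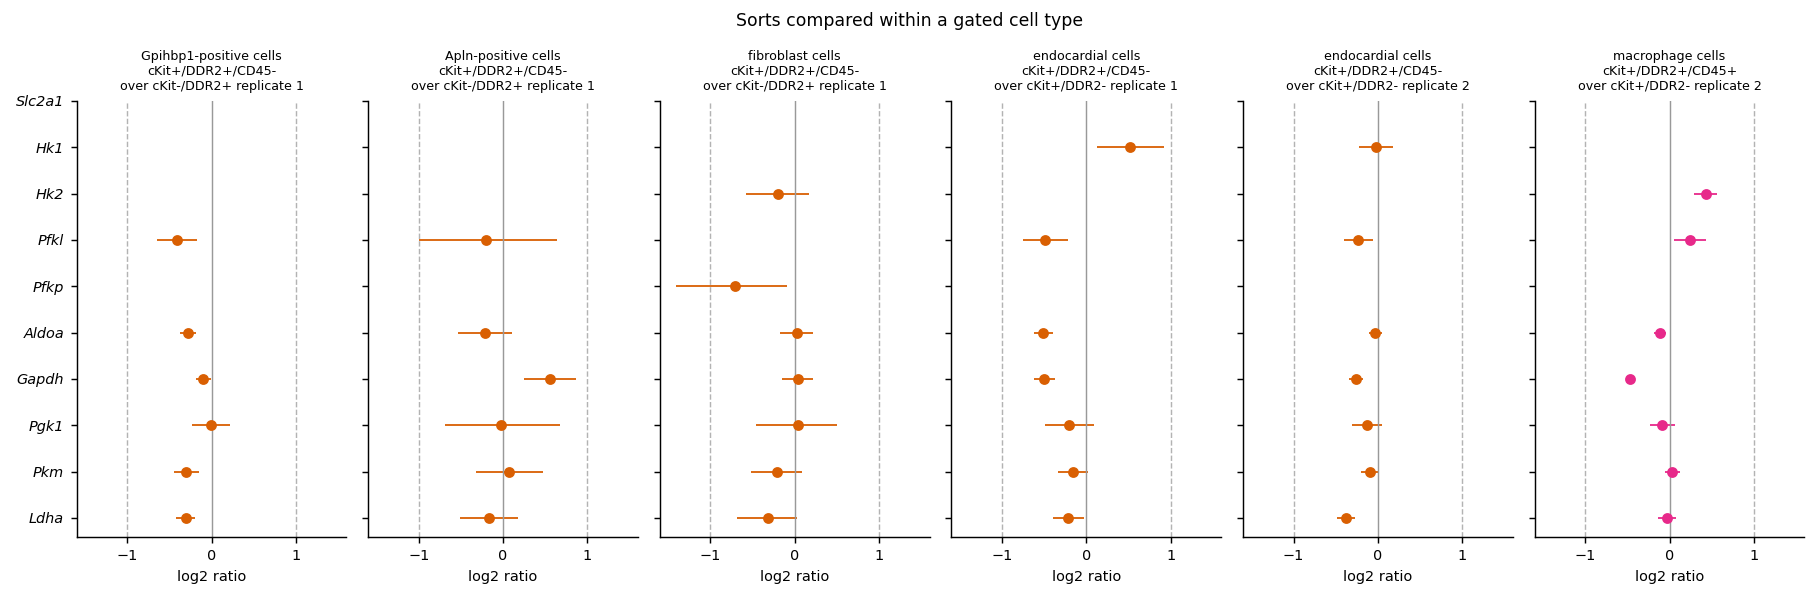
Log2 ratio of CPM between sorts within a gated cell type, for the genes with at least 50 CPM in 1 library; bars are exact 95% intervals for counting error and dashed lines mark 2-fold. All points lie between the dashed lines, with Pfkp in fibroblasts (-0.70 with 1 CPM added) and Gapdh in Apln-positive cells (0.55) the farthest from 0.

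Over whole libraries, in contrast, Hk2 differed widely. From the lowest, it stood at 6.36 CPM (cKit+/DDR2+/CD45-), 7.66 CPM (cKit+/DDR2- replicate 1), 39.9 CPM (cKit+/DDR2- replicate 2), 92.1 CPM (cKit-/DDR2+) and 122.7 CPM (cKit+/DDR2+/CD45+). Gated fibroblasts numbered 37, 5, 126, 768 and 0 in that order, and gated macrophages 1, 23, 544, 11 and 3481. Hk2 thus followed the share of a library's cells in these gates.

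The promoters of the 3 genes of glucose trapping and commitment that parted the cell types most, Hk2, Hk1 and Pfkl, are given here from RefSeq (build GRCm38.p6), as the 250 bases before the start site, 5′ to 3′ on the strand of the gene. Capitals mark ACGTG and GCGTG or their reverse complements CACGT and CACGC, the core of the element that hypoxia-inducible factors bind; ACGTG is also part of the E-box CACGTG.
Hk2, chr6:82774455-82774704, minus strand: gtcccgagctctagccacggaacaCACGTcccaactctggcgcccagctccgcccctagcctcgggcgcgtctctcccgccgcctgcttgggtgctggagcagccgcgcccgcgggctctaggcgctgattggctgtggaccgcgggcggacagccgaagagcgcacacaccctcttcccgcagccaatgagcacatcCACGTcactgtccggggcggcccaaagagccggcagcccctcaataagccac
Hk1, chr10:62340422-62340671, minus strand: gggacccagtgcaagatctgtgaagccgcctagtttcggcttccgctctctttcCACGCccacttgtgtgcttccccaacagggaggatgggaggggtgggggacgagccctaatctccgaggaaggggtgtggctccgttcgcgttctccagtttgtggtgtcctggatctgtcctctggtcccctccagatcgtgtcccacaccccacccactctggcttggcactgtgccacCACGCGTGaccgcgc
Pfkl, chr10:78009808-78010057, minus strand: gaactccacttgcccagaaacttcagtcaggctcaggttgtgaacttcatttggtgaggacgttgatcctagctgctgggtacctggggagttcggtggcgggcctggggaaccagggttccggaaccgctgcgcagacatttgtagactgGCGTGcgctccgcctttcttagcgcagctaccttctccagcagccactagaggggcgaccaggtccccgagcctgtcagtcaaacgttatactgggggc
The Hk2 window holds 2 matches, the Hk1 window 3, of which a pair overlap, and the Pfkl window 1. A second Hk1 start site in the table, 250 bases at chr10:62379909-62380158, holds 0. Of 15 windows of the 10 genes 12 hold a match (80.0%), against 38.6% of 32851 windows of all genes. Windows can overlap: those of Aldoa at chr7:126799255-126799504 and chr7:126799179-126799428 share a match. Each of the 10 genes has at least 1 window with a match, but the share of all genes with at least 1 was not counted. The letters are a description of the sequence, and they do not part the gene that is high in fibroblasts from those that are low there.

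Other genes of glucose metabolism were read from 6 lists of 75 genes in all. The shares of all genes called in each contrast, given above, are the background for their counts. Every macrophage difference of these lists comes, as above, from cKit+/DDR2- replicate 2, whose Gpihbp1 gate holds 162 lymphatic-marker cells of 400. For no gene of these lists is a fit without the lymphatic-marker cells given. Of 16 further glycolytic genes only 5 passed the filter. Macrophages had Eno1 (enolase; 1.07, SE 0.265, adjusted p = 0.00805) and Gpi1 (phosphoglucose isomerase; 0.68, SE 0.212, adjusted p = 0.0289) higher, beside the lower Ldhb. Fibroblasts had Gpi1 lower (-0.38), and endocardial cells Eno1 lower (-0.58) and Ldhb higher. In Apln-positive cells none of the 5 was called.

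The pentose phosphate pathway, which draws on glucose 6-phosphate to make NADPH and ribose, had 5 of 7 genes called higher in macrophages, where 8.66% of all genes were. They were G6pdx, its first enzyme (2.56, SE 0.809, adjusted p = 0.0293), Pgd (1.90, SE 0.479, adjusted p = 0.00904), Tkt (0.82), Taldo1 (0.77) and Pgls (0.69). Fibroblasts had G6pdx (1.63, adjusted p = 0.0244) and Pgd (1.26, adjusted p = 0.00541) higher out of 7. Endocardial cells had Rpe (-0.79) and Tkt (-0.62) lower, and Apln-positive cells none called.

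Among 11 regulators, 4 passed the filter, and Txnip, whose product curbs glucose uptake, was lower than in Gpihbp1-positive cells in all 4 contrasts: by -0.89 in Apln-positive, -0.38 in endocardial, -0.94 in fibroblast and -0.80 in macrophage cells, with adjusted p-values of 0.00293, 0.0252, 5.31e-05 and 0.00721. The 4 values share their Gpihbp1-positive sums. Pfkfb3, which makes an activator of phosphofructokinase, was lower in Apln-positive cells (-2.26, SE 0.494, adjusted p = 0.0179). Its Apln-positive sums stood at 0, 10.9 and 15.1 CPM, against 19.7 to 34.3 CPM in Gpihbp1-positive cells. In the Apln-positive sums 3 UMIs make 4.09 to 10.3 CPM, so the size of the difference rests on few UMIs and on the sum at 0. Pdk1 (pyruvate dehydrogenase kinase) was lower in fibroblasts (-1.41), and Pdp1, the opposing phosphatase, lower in endocardial cells (-0.98). Of 13 transport genes 4 passed: the mitochondrial pyruvate carrier genes Mpc1 (0.42) and Mpc2 (0.82) were higher in fibroblasts. Bsg, the chaperone of lactate transporters, was higher in endocardial cells (0.66) and lower in macrophages (-0.98), and none was called in Apln-positive cells.

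Of 18 hypoxia-response genes 17 passed the filter. In macrophages 10 were lower and 0 higher, where 22.1% of all genes were lower and 8.66% higher; the list was led by Epas1, which encodes HIF-2α (-5.60, SE 0.317, adjusted p = 5.34e-08), Ndrg1 (-5.33) and Adm (-4.12). In fibroblasts 6 of the 17 were lower, where 23.8% of all genes were, among them Ndrg1 (-3.83), Ankrd37 (-3.23) and Epas1 (-2.79), while Vegfa, the endothelial growth factor gene (2.10, SE 0.299, adjusted p = 1.01e-04), and Higd1a (0.53) were higher. Endocardial cells had Ankrd37 (-2.21), Egln1 (-1.68) and Mif (-0.60) lower. Apln-positive cells had Adm (1.71, SE 0.382, adjusted p = 0.0194) and Mif (0.48) higher and Ddit4 (-1.67) and Ndrg1 (-1.22) lower; Adm was also 1 of the markers of these cells.

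Genes of the response to tissue digestion differed between types as well. Of 10, fibroblasts had 6 higher, led by Fos (2.18), and Hspa1a (-2.19) and Hspa1b (-2.10) lower. Macrophages had 4 higher, led by Atf3 (2.86), endocardial cells 2 higher and 3 lower, and Apln-positive cells 3 lower, led by Atf3 (-1.50). The part of digestion in the glycolytic differences was not tested.

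Across the 16 sums, 3094 genes with a mean of at least 50 CPM were ranked by likeness to the pattern of these genes on log2(CPM + 1). The points share libraries and depth, so the Pearson correlations are given as a description. Nearest to the summed 10 genes were Cuta (0.79), Tbcb (0.79), Cct8 (0.75), H3f3a (0.73) and Tbca (0.73). Nearest to Slc2a1 were Hnrnph2 (0.81), Arhgdib (0.80), Pacsin2 (0.80), Mknk2 (0.78) and Tgfbr2 (0.78). For Hk2 and Pfkl, ranked after their values were seen, the nearest genes were Axl (0.95), Mt1 (0.93), Pmp22 (0.93), Mdh1 (0.93) and Lgals1 (0.93), and Cracr2b (0.96), Smagp (0.95), Ednrb (0.95), Rab11a (0.93) and Pkp4 (0.93).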

How the data were processed

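The submitters' processing notes name Cell Ranger, the build mm10 and Seurat 4.0.4. Values in the deposited tables are natural logs, log(1 + UMIs per 10000 of the cell's UMIs); whole UMIs were recovered for 100% of values (tolerance 0.01). Genes absent from 1 library's table were set to 0 there. Total and median UMIs of the libraries are given above. A cell entered a gate with at least 2 UMIs of its gene and fewer than 2 of each other gate gene, except that Apln-positive cells could hold Gpihbp1. Genes with a mean of at least 10 CPM were tested with limma 3.58.1 (R 4.3.3), trend on, Benjamini-Hochberg adjusted over all genes, two-sided, after a check on simulated data. Called means an adjusted p below 0.05. Other work used Python 3.11.15, scanpy 1.11.5 (Scrublet), pandas 2.3.3, scipy 1.17.1, matplotlib 3.10.9 and numpy 2.4.6. Scrublet marked 1.06% to 1.4% of cells in 4 libraries and 0.0257% in cKit+/DDR2+/CD45+, where it cannot be said to have worked; no cell was removed in the values above. Replicate numbers of cKit+/DDR2- follow accession order and pair nothing. All 10 genes were named; of each other list, the counts and up to 3 called genes farthest from 0, further called genes being named where a sentence lists them. The 10 genes, the lists and the tests were chosen with earlier results of these data known. Alternatives covered gates, cells per sum, doublets, depth, scaling, filter, pseudocount, model, block and each library left out; leaving out the shared barcodes or the cells of lymphatic markers was chosen after seeing the data.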

Additional observations from a re-analysis of the deposited data

Results flagged for a closer look

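Of 20 groups of 4 libraries checked, 1 had a library far from the others, and chance flags about 1 in 20. Hk2 in Gpihbp1-positive cells stood at 11.5 CPM in cKit-/DDR2+, where the other 3 libraries held 0.264 to 1.86 CPM; the gap was 0.857 of the whole range, over the limit set for 4 libraries. The 64 Hk2 UMIs behind it lie in 8 of 1027 cells, with up to 22 in 1 cell. Of the 8 cells, 7 hold UMIs of the endothelial gene Cdh5 and 5 hold at least 2 UMIs of Dcn, which 40.9% of the Gpihbp1-positive cells of that library do, against 1.46% to 3.25% in the other libraries. Their median depth is 11176 UMIs, against 5208 for all Gpihbp1-positive cells there. Whether these cells hold RNA of a second cell was not tested.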

How the results depend on the processing

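The fibroblast calls of Hk2, Pfkl, Hk1 and Ldha and the macrophage calls of Hk2 and Hk1 held under every alternative that tested those genes. Hk2 passed the filter of the main fit only through its fibroblast and macrophage sums, so its calls are no support here. Counts of called genes, in the order all genes and then members, were as follows where they moved; the cause was not tested, apart from filters and gates, which change the genes or cells tested. Apln-positive minus Gpihbp1-positive (786 and 1) gave 434 and 0 with a gate of 1 UMI, 402 genes with at least 50 cells, 482 and 0 with at least 15 cells, 360 and 0 without a filter, 505 and 2 with a mean of at least 50 CPM, 332 genes with limma-voom weights, 0 members with a gate of 3 UMIs or without cells of another type, 2 members without shallow and deep cells or with median-of-ratios scaling, and 514 and 0 without the cells of lymphatic markers. Leaving out 1 library gave 38 to 1053 genes and 0 to 1 members: 38 without cKit+/DDR2+/CD45-, 95 without cKit+/DDR2- replicate 1 and 241 without its replicate 2. Endocardial minus Gpihbp1-positive (2256 and 1) gave 1267 and 0 at 50 CPM, where Pfkp was not tested, 4155 and 3 with voom weights, 3 members with means over cells, 0 with a gate of 1 UMI, and 2 with a gate of 3 UMIs, without cells of another type, with at least 50 or 15 cells, without the cells of lymphatic markers, or with median-of-ratios scaling; without 1 library, 1393 (without cKit+/DDR2+/CD45-) to 2260 genes and 1 to 2 members. Fibroblast minus Gpihbp1-positive (3399 and 4) gave 2183 genes with at least 15 cells and 1682 and 2 at 50 CPM; without 1 library, 2354 to 3416 genes and 4 members. Macrophage minus Gpihbp1-positive (2678 and 3) gave 1393 and 1 at 50 CPM, 4807 and 6 with voom weights, 5 members with at least 15 cells, no library block or no cells of lymphatic markers, and 6 with at least 15 cells and no shared barcodes; without 1 library, 2364 to 2952 genes and 3 to 4 members. Between sorts, 1 member was called without a filter in Gpihbp1-positive, Apln-positive, fibroblast and endocardial cells, and 1 (Pfkp) in fibroblasts with a gate of 3 UMIs.

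Median-of-ratios scaling moved the median of all genes from -0.11 to -0.07 (Apln-positive), from -0.09 to -0.01 (endocardial), from -0.13 to -0.01 (fibroblast) and from -0.30 to 0.01 (macrophage). It added calls of Ldha (0.46) in Apln-positive, Pkm (0.35) in endocardial, Pfkp (0.52) in fibroblast and Gapdh (0.99) and Pkm (0.60) in macrophage cells.

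Signs turned only for values that were not called. In Apln-positive cells Hk1 (0.0038) went to -0.019 (without the cells of lymphatic markers), -0.27 (gate of 1 UMI), -0.0015 (depth), -0.0096 (50 cells), -0.13 (15 cells), -0.14 (15 cells, no shared barcodes), -0.0046 (total without mitochondrial genes, Gm42418 and Lars2) and -0.016 (no library block), and ran from -0.041 to 0.028 without 1 library. Hk2 went to 1.03 and Gapdh to 0.45 with at least 50 cells, Gapdh to 0.032 with 15 and to 0.036 without the cells of lymphatic markers, and Pfkl to 0.042 and Pfkp to 0.093 with a gate of 1 UMI. In endocardial cells Hk2 went to -0.11 (depth) and -0.029 (pseudocount of 5 CPM) and ran from -0.17 to 0.82 without 1 library, and Pgk1 went to 0.043 (median-of-ratios) and ran from -0.16 to 0.025. In fibroblasts Aldoa went to 0.062 (median-of-ratios) and ran from -0.18 to 0.013 without 1 library. Fibroblast Gapdh went to -0.031 and -0.063 (gates of 1 and 3 UMIs), -0.0016 (depth), -0.050 (50 cells), -0.014 (15 cells) and -0.055 (15 cells, no shared barcodes) and ran from -0.063 to 0.17 without 1 library, and Pkm went to -0.050 (gate of 3 UMIs), -0.063 (15 cells) and -0.041 (15 cells, no shared barcodes). In macrophages Pfkp went to 0.081 and Pgk1 to 0.29 (median-of-ratios), Pgk1 to 0.051 (without cells of another type) and 0.031 (without those of lymphatic markers), and Pkm to -0.096 (15 cells) and -0.14 (15 cells, no shared barcodes).

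Cell types were compared within libraries, with the library as a block. No paired analysis was possible because, between sorts, replicate numbers follow accession order and 1 sort alone has a second library. The macrophage contrast without cKit+/DDR2- replicate 2 could not be fitted, and sums under 50 cells, or under 30 with a gate of 3 UMIs, left some comparisons of sorts without a value. Slc2a1 is limited by depth.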
